A study of Mus musculus with 4 samples.

Results

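The microRNAs (miRNAs) described here are the partners of let-7 in the 3 conserved clusters that join a member of the miR-99/100 family, a let-7 precursor and a member of the miR-125 family. The members were taken by name: mmu-miR-125a-5p, mmu-miR-125a-3p, mmu-miR-125b-5p, mmu-miR-125b-1-3p, mmu-miR-125b-2-3p, mmu-miR-99a-5p, mmu-miR-99a-3p, mmu-miR-99b-5p, mmu-miR-99b-3p and mmu-miR-100-5p. They are 10 of the 1326 mature miRNAs in the deposited table, and the mmu- prefix, which marks mouse, is left out from here on. They were measured by small RNA sequencing of whole retina at E18.5, late in the embryonic life of the mouse. There were 2 libraries of Ptf1a-/- retina and 2 of Ptf1a+/- retina. Ptf1a encodes a transcription factor that retinal progenitors need to form amacrine and horizontal cells. Every retina in the comparison thus lacked at least 1 functional copy of the gene, and no wild-type retina was used here. The labels do not describe the mutant allele, the strain or the number of animals in a library, so the spread that the p-values measure is that between libraries, and it may be technical only. The comparison asks how the miRNAs of the retina differ when no functional Ptf1a is left.

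miR-125 is the vertebrate relative of lin-4, which with let-7 sets developmental timing in the worm Caenorhabditis elegans. In mouse retina, let-7, miR-125 and miR-9 are known for moving progenitors from early to late competence, and miR-99/100 is known mostly as a repressor of the growth kinase Mtor. A primary transcript of each cluster is cut into hairpins, each hairpin gives a 5p and a 3p arm, and the arm loaded into Argonaute is the guide. A miRNA pairs with its targets chiefly through its seed, bases 2 to 8 from the 5′ end, so arms that share a seed share many predicted targets.

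The 5p arms are shown first because they carry nearly all of the counts of their precursors and because the comparison turns on how alike they are. The sequences are RefSeq's (GRCm38.p6), written 5′ to 3′ with the seed in capitals, and all 10 members matched an entry.
miR-99b-5p: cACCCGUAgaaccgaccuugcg
miR-99a-5p: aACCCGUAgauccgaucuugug
miR-100-5p: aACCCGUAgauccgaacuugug
miR-125a-5p: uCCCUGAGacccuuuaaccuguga
miR-125b-5p: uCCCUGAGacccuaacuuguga

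The 3 arms of the miR-99/100 family share 1 seed, and no other mature miRNA of the RefSeq table has it. Counting from 1 at the 5′ end, miR-99a-5p differs from miR-100-5p by U16A alone, and from miR-99b-5p by A1C, U11A, U16C and U21C. miR-125a-5p, 24 nt long, and miR-125b-5p, 22 nt long, share their first 13 bases. The values of miR-99a-5p and miR-100-5p ended in 0.5 in the same 2 libraries, Ptf1a-/- replicate 1 and Ptf1a+/- replicate 1, and were whole in the others. The other 8 members had whole values in every library. Whether the authors' counting split reads between these near-identical arms was not tested, so their single values are less certain than their sum.

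The miR-99b cluster is compact. On chromosome 17 (GRCm38, GENCODE M21, plus strand) Mir99b lies at 17830188 to 17830257, Mirlet7e at 17830352 to 17830444 and Mir125a at 17830812 to 17830879, a span of 692 bases. Mir99b and Mirlet7e lie in an intron of the protein-coding gene Spaca6, and Mir125a overlaps an exon of one of its annotated transcripts. The other 2 clusters are spread out. On chromosome 16 Mir99a (77598936 to 77599000), Mirlet7c-1 (77599657 to 77599750) and Mir125b-2 (77646273 to 77646343) span 47.4 kb in introns of the noncoding gene Mir99ahg. On chromosome 9 Mir100 (41531425 to 41531504), Mirlet7a-2 (41536716 to 41536811) and Mir125b-1 (41581926 to 41582002) span 50.6 kb in introns of the noncoding genes 3110039I08Rik and Gm49317. Mir125b-1 also overlaps an exon of the short noncoding gene Gm28119, and Mir100 overlaps an exon of Gm48742 on the opposite strand. Since Mir125b-1 and Mir125b-2 give the same 5p arm, miR-125b-5p sums both loci, and only the 3p arms tell them apart.

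The hairpins of Mir125a and Mir125b-1 are shown because the 5p arm of Mir125a was the member that passed the test between genotypes while its 3p arm did not. Capitals mark the annotated arms, the 5p arm first.
Mir125a: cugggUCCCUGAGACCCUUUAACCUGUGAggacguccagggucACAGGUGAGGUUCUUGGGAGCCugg
Mir125b-1: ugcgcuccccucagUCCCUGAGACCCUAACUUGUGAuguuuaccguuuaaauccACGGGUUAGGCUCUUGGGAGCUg

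Counts summed over all miRNAs lay between 3658490 and 3917069 in Ptf1a-/- libraries and between 3647145 and 4385834 in Ptf1a+/- libraries. The 10 members took 3.28 and 2.93% of them in Ptf1a-/- replicates 1 and 2, against 3.69 and 3.76% in Ptf1a+/- replicates 1 and 2. The libraries did not spread alike. The coefficient of variation between libraries beyond counting error, over all miRNAs tested, was 22.6% in Ptf1a-/- and 1.39% in Ptf1a+/-. Over the 9 members with 20 or more summed counts, the Ptf1a-/- libraries differed far beyond read sampling (chi-square per degree of freedom 120.1), whereas the Ptf1a+/- libraries differed by no more than sampling noise (1.00). Over all miRNAs the Ptf1a+/- pair differed by somewhat more (1.85). This test covers counting error only and does not tell separate animals from separate libraries of 1 RNA. Both were kept because the labels list them as 2 samples, and the fit with the pair summed into 1 library is given beside the calls of members. Ptf1a-/- replicate 2 stood apart in composition: its factor in the TMM scaling (a trimmed mean of ratios between libraries) was 0.829, against 1.06 to 1.07 in the other 3 libraries. Retinal miRNAs were abundant among the 584 miRNAs that entered the test, for which 2 libraries had to reach 10 counts. miR-9-5p stood at rank 1, miR-182-5p at rank 3, miR-183-5p at rank 5, miR-96-5p at rank 26 and miR-124-3p at rank 80.

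1 member, miR-125a-5p, was lower in Ptf1a-/- retinas at 0.699 of its Ptf1a+/- level, while its cluster neighbour miR-99b-5p had a log2 fold change of 0.15 that did not pass the test. The other members did not pass either, and most of them had log2 fold changes below 0. Of the 10 members 9 entered the test. Called by edgeR's quasi-likelihood test, with p adjusted over all 584 miRNAs by the method of Benjamini and Hochberg and a threshold of 0.05, none was higher and 1 was lower. Over all 584 miRNAs 9.76% were called, 6.16% higher and 3.60% lower, and a single call among 9 members does not set them apart from this background. At an unadjusted p under 0.05 there were 2 members, miR-125a-5p and miR-100-5p, both lower, while 25.3% of all miRNAs tested passed that threshold, a share near 2 in 9. DESeq2 called the same numbers, none higher and 1 lower. The median log2 fold change of the 9 was -0.17, against -0.0031 over all miRNAs tested. On the TMM scaling, in 6 of the 9 both Ptf1a-/- libraries lay below both Ptf1a+/- libraries, and in 1 above both. Over all miRNAs these shares were 31.5 and 26.7%. The tally depends on that scaling. As shares of listed counts, miR-99b-5p and miR-125b-2-3p also lay below both Ptf1a+/- libraries, and miR-99b-3p overlapped them. With so close a Ptf1a+/- pair, libraries that do not overlap are common and measure no effect by themselves. No member was called lower by edgeR with library size as the only scaling, without the filter on low counts, with the Ptf1a+/- pair summed and without either Ptf1a+/- library (4, 2, 0, 0 and 0 members at an unadjusted p under 0.05, against 23.8, 13.7, 9.42, 8.16 and 8.33% of all miRNAs tested in those fits). Without Ptf1a-/- replicate 1 edgeR called 2 higher and 4 lower, and without replicate 2 it called 1 higher and 4 lower, fits in which the lone Ptf1a-/- library is assumed to vary as little as the Ptf1a+/- pair.

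**Figure D1:**
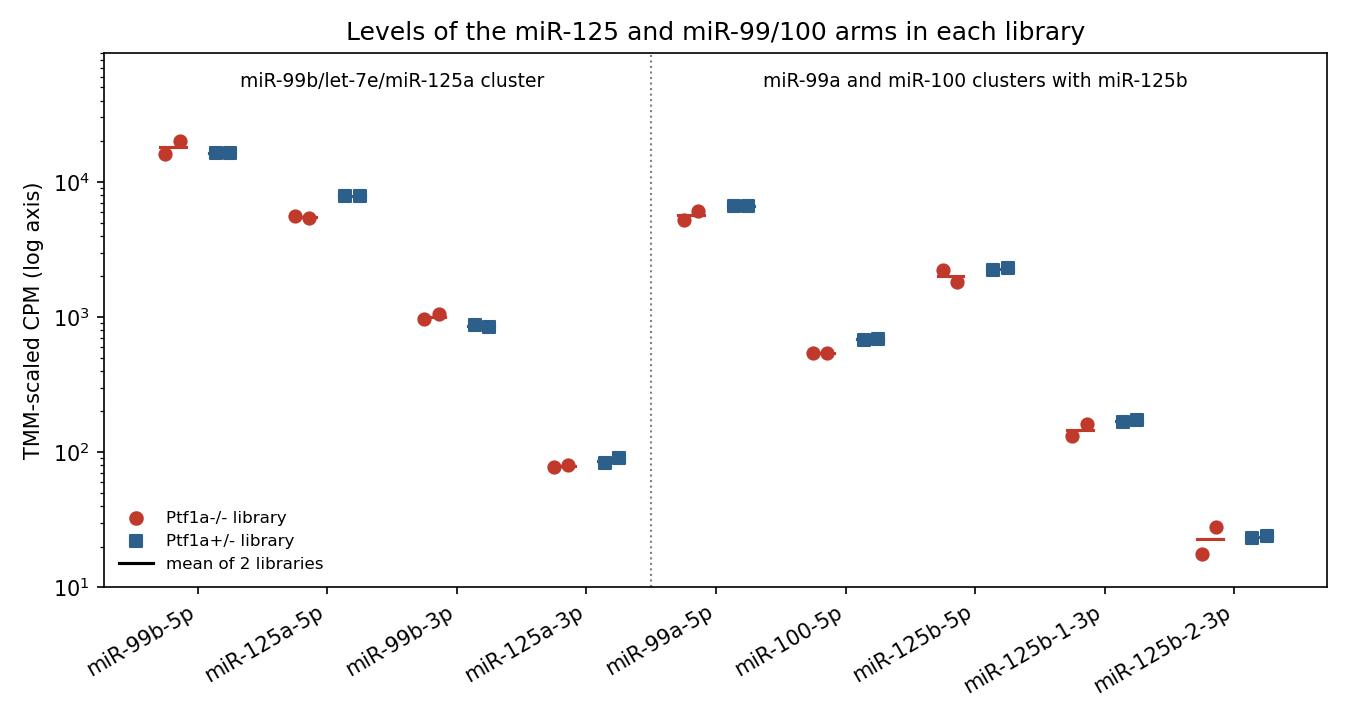
Levels of the 9 members tested, as TMM-scaled CPM (log axis), with 1 point per library (circles Ptf1a-/-, squares Ptf1a+/-) and a line at the mean of 2 libraries. For miR-125a-5p the Ptf1a-/- libraries stand at 5619 and 5426 CPM, below 7867 and 7928 CPM in the Ptf1a+/- libraries. For miR-99b-5p the genotypes overlap on this scaling, though not as shares of listed counts.

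In the miR-99b cluster, miR-99b-5p was the member with the most counts, at rank 9 of all miRNAs tested. All levels are TMM-scaled CPM, counts scaled to 1000000 per library. It had 16135 and 20150 CPM in Ptf1a-/- replicates 1 and 2, against 16246 and 16388 CPM in Ptf1a+/- replicates 1 and 2. On the TMM scaling the first Ptf1a-/- library lay just under the Ptf1a+/- pair and the second above it, so the genotypes overlapped. As a share of listed counts miR-99b-5p took 1.71 and 1.67% in Ptf1a-/-, against 1.72 and 1.76% in Ptf1a+/-. Both Ptf1a-/- libraries were thus slightly lower before that scaling. The log2 fold change was 0.15 ± 0.15 (SE; 95% interval -0.22 to 0.52; adjusted p = 0.581), and it was below 0 with library size as the only scaling (-0.043), on the total behind the deposited CPM (-0.20) and without Ptf1a-/- replicate 2 (-0.013).

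Its partner arm miR-99b-3p stood at 964 and 1046 CPM in Ptf1a-/-, against 869 and 842 CPM in Ptf1a+/-. On the TMM scaling both Ptf1a-/- libraries were the higher ones. As a share of listed counts miR-99b-3p overlapped between genotypes (0.102 and 0.0867% in Ptf1a-/-, 0.0923 and 0.0902% in Ptf1a+/-). The difference did not pass (0.23 ± 0.11, interval -0.03 to 0.49, adjusted p = 0.244), and it was -0.11 on the total behind the deposited CPM.

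miR-125a-5p, the main miR-125 arm of this retina, had 5619 and 5426 CPM in Ptf1a-/- replicates 1 and 2, against 7867 and 7928 CPM in Ptf1a+/- replicates 1 and 2. Both Ptf1a-/- libraries were lower, and no library of one genotype reached the other. Their closeness rests on the TMM scaling: as a share of listed counts miR-125a-5p took 0.595 and 0.450% in Ptf1a-/-, against 0.835 and 0.850% in Ptf1a+/-, so that replicate 2 was well below replicate 1. The means were 5522 ± 136.4 CPM in Ptf1a-/- and 7898 ± 43.5 CPM in Ptf1a+/- (SD, n = 2 each), a fold of 0.699 (95% interval 0.580 to 0.843; log2 fold change -0.52 ± 0.11, edgeR adjusted p = 0.0430). Under 13 alternatives the log2 fold change stayed between -0.84 and -0.49. The adjusted p was 0.0463 with RLE scaling, 0.0297 on the total behind the deposited CPM, 0.0259 with DESeq2 and 0.0450 with limma-voom. With 10 or more counts required in all 4 libraries it was 0.0370. Fits with a lone Ptf1a-/- library measure no spread between Ptf1a-/- libraries, so their p is not given here. The adjusted p was 0.0591 with library size alone, 0.0713 without the filter, 0.583 with the Ptf1a+/- pair summed, and 0.649 and 0.636 without Ptf1a+/- replicates 1 and 2. In bulk retina, fewer cells that hold a miRNA and less of it per cell cannot be told apart.

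The 3p arm miR-125a-3p was a minor product, at 77.2 and 80.4 CPM in Ptf1a-/-, against 82.9 and 90.0 CPM in Ptf1a+/-. Its libraries did not overlap either, yet they were close, and the log2 fold change of -0.14 ± 0.14 had an interval of -0.47 to 0.20 (adjusted p = 0.586).

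In the spread-out clusters, miR-99a-5p had 5258 and 6043 CPM in Ptf1a-/-, against 6579 and 6644 CPM in Ptf1a+/-. Both Ptf1a-/- libraries were lower, replicate 1 more so on the TMM scaling. As a share of listed counts miR-99a-5p took 0.557 and 0.501% in Ptf1a-/-, against 0.698 and 0.712% in Ptf1a+/-, so replicate 2 was then the lower. The difference did not pass (-0.23 ± 0.12, interval -0.53 to 0.07, adjusted p = 0.318). It was -0.42 with library size as the only scaling and -0.57 on the total behind the deposited CPM. The 3p arm miR-99a-3p hardly appeared, with 3 and 0 counts in Ptf1a-/- and 2 and 4 in Ptf1a+/-, and was the member that did not enter the test. The ratio of summed counts, after scaling by the TMM library sizes, was 0.602 with a 95% counting interval of 0.0974 to 2.82. A count of 0 in Ptf1a-/- replicate 2 allows up to 0.924 CPM (at 3 counts), and such limits cover counting error only.

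miR-100-5p, the member of chromosome 9, stood at 541 and 545 CPM in Ptf1a-/-, against 681 and 688 CPM in Ptf1a+/-. On the TMM scaling the libraries of each genotype lay close together and the genotypes apart. As a share of listed counts miR-100-5p took 0.0573 and 0.0452% in Ptf1a-/-, against 0.0723 and 0.0737% in Ptf1a+/-. Ptf1a-/- replicate 2 was thus below replicate 1 before that scaling. The log2 fold change was -0.34 ± 0.10, with an interval of -0.58 to -0.09 and an unadjusted p of 0.0163, and it did not pass after adjustment (edgeR adjusted p = 0.102). It was below 0 in all 13 alternatives.

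miR-125b-5p, which both Mir125b loci give, had 2224 and 1811 CPM in Ptf1a-/-, against 2230 and 2314 CPM in Ptf1a+/-. The first Ptf1a-/- library nearly met the Ptf1a+/- pair and the second lay well below it. The log2 fold change was -0.17 ± 0.13 (interval -0.50 to 0.16, adjusted p = 0.488). Of the 3p arms that mark the loci, miR-125b-1-3p from chromosome 9 stood at 130.9 and 161.4 CPM in Ptf1a-/-, against 167.9 and 173.2 CPM in Ptf1a+/- (-0.23 ± 0.14, adjusted p = 0.390). miR-125b-2-3p from chromosome 16 stood at 17.6 and 28.0 CPM in Ptf1a-/-, against 23.2 and 24.0 CPM in Ptf1a+/- (-0.07 ± 0.27, adjusted p = 0.903). On the TMM scaling the Ptf1a-/- libraries of miR-125b-2-3p stood on either side of the Ptf1a+/- pair, and as shares of listed counts both were below it. The interval of miR-125b-2-3p, -0.73 to 0.59, leaves room for a change larger than that of miR-125a-5p in either direction.

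**Figure D2:**
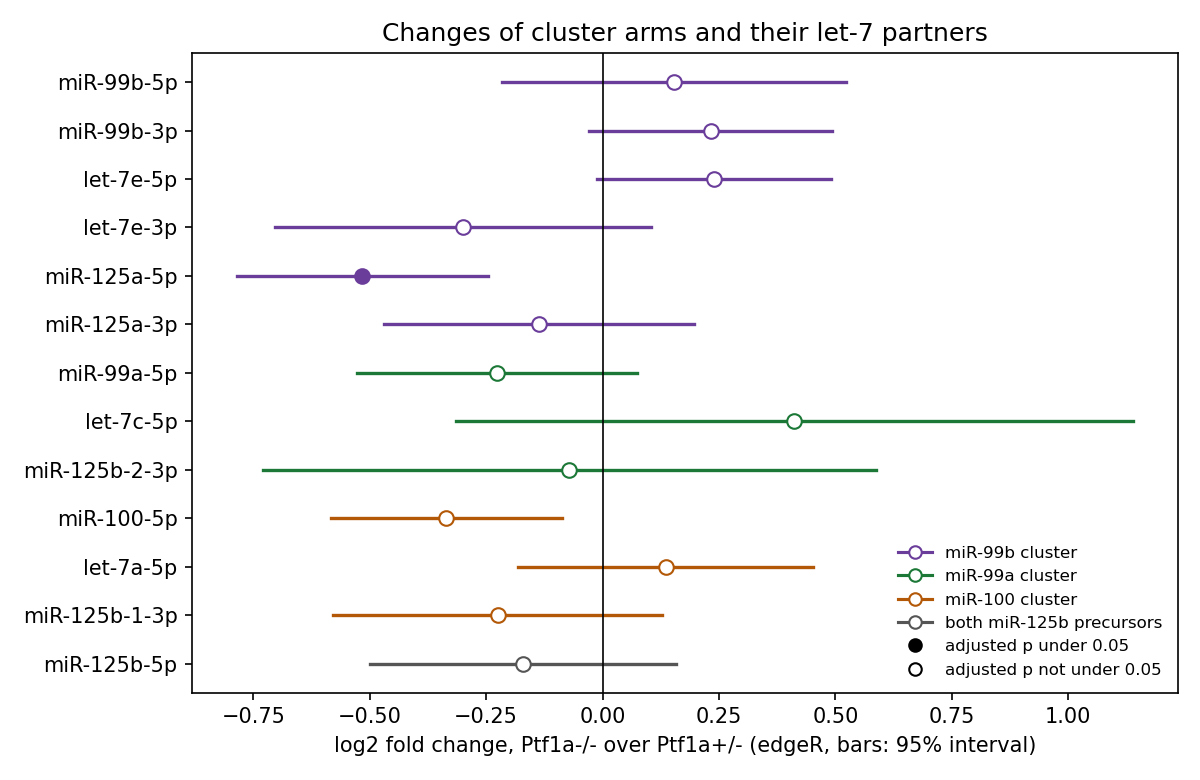
Log2 fold changes, Ptf1a-/- over Ptf1a+/-, of 9 members and of 4 let-7 arms, by cluster; points are edgeR estimates and bars 95% intervals. The filled point, miR-125a-5p at -0.52, is the arm shown with an adjusted p under 0.05, and the intervals of the open points reach 0 except that of miR-100-5p (-0.58 to -0.09).

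The order of the levels in Ptf1a-/- libraries was miR-99b-5p, miR-99a-5p, miR-125a-5p, miR-125b-5p, miR-99b-3p, miR-100-5p, miR-125b-1-3p, miR-125a-3p and miR-125b-2-3p, with means from 18143 down to 22.8 CPM. The libraries of miR-99a-5p and miR-125a-5p overlapped, and every other pair of neighbours in this order was apart. In Ptf1a+/- libraries miR-125a-5p stood above miR-99a-5p, at 7898 ± 43.5 and 6611 ± 46.0 CPM (SD, n = 2 each), the rest of the order was the same, and no neighbours overlapped. Ligation and PCR favour some sequences, so the order of different miRNAs is less certain than a comparison of 1 miRNA between libraries.

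Ratios of 2 arms within a library do not depend on how libraries are scaled, and they compare the clusters directly. With 2 libraries against 2, an exact two-sided permutation test cannot give a p under 0.333, so no ratio could pass, and the adjusted p over the 13 ratios computed was 0.481 for each ratio whose genotypes did not overlap. The values are therefore given as measured.

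Within the miR-99b cluster, miR-125a-5p had 0.348 and 0.269 counts for each count of miR-99b-5p in Ptf1a-/- replicates 1 and 2, against 0.484 and 0.484 in Ptf1a+/- replicates 1 and 2. The Ptf1a-/- ratio was 0.633 times that of Ptf1a+/- (log2 difference -0.66, exact p = 0.333), and both Ptf1a-/- libraries were below the pair. Set over let-7e-5p, the let-7 guide of the cluster, a ratio chosen after the values were seen, miR-125a-5p stood at 2.17 and 2.10 in Ptf1a-/-, against 3.63 and 3.57 in Ptf1a+/- (log2 difference -0.76, exact p = 0.333). Here the 2 Ptf1a-/- libraries lay nearly on each other. let-7e-5p over miR-99b-5p, chosen likewise, overlapped between genotypes (0.161 and 0.128 in Ptf1a-/-, 0.133 and 0.135 in Ptf1a+/-, exact p = 1). For the miR-99a cluster, let-7c-5p over miR-99a-5p was also chosen after the values were seen. It was 0.820 and 1.39 in Ptf1a-/-, against 0.722 and 0.721 in Ptf1a+/- (log2 difference 0.56, exact p = 0.333). The genotypes did not overlap, and Ptf1a-/- replicate 2 stood further off. Since Mirlet7c-2 on chromosome 15 gives the same let-7c-5p, this ratio does not compare arms of that cluster alone.

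Between clusters, miR-99b-5p over miR-99a-5p was 3.07 and 3.33 in Ptf1a-/-, against 2.47 and 2.47 in Ptf1a+/- (log2 difference 0.37, exact p = 0.333). miR-99b-5p over miR-100-5p was 29.8 and 37.0 in Ptf1a-/-, against 23.8 and 23.8 in Ptf1a+/- (0.48, exact p = 0.333). The miR-99/100 arm of the compact cluster thus took a larger part of the family in both Ptf1a-/- libraries. For the miR-125 family the ratio went the other way: miR-125a-5p over miR-125b-5p was 2.53 and 2.996 in Ptf1a-/-, against 3.53 and 3.43 in Ptf1a+/- (-0.34, exact p = 0.333). Set against their relatives from the other clusters, the 2 guides of the compact cluster thus stood on opposite sides of the Ptf1a+/- values. Between the 2 spread-out clusters, miR-100-5p over miR-99a-5p was 0.103 and 0.0901 in Ptf1a-/-, against 0.104 and 0.104 in Ptf1a+/- (-0.11, exact p = 0.333), a difference carried by replicate 2.

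**Figure D3:**
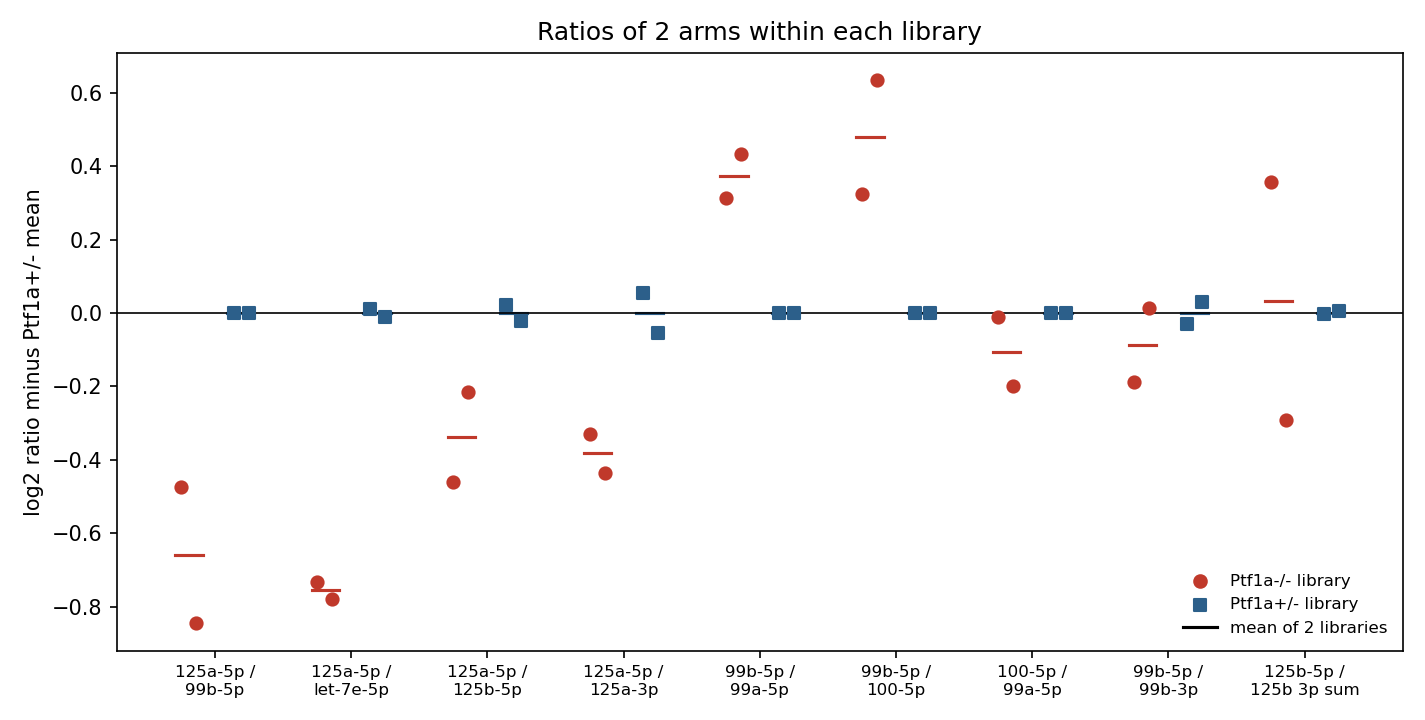
Ratios of 2 arms within each library, on a log2 scale less the Ptf1a+/- mean of that ratio, with 1 point per library (circles Ptf1a-/-, squares Ptf1a+/-) and a line at the mean; all arms named are of miR-99, miR-100 or miR-125 unless written let-7. Both Ptf1a-/- libraries lie below 0 for miR-125a-5p over miR-99b-5p, let-7e-5p, miR-125b-5p and miR-125a-3p, and above 0 for miR-99b-5p over miR-99a-5p and miR-100-5p.

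Arms of 1 precursor were compared in the same way. miR-125a gave 72.8 and 67.5 counts of the 5p arm for each of the 3p arm in Ptf1a-/-, against 94.9 and 88.1 in Ptf1a+/-, 0.767 times as many (log2 difference -0.38, exact p = 0.333), with no overlap. let-7e of the same cluster, a ratio chosen after the values were seen, went the other way, with 74.4 and 67.2 in Ptf1a-/- against 47.7 and 49.7 in Ptf1a+/- (log2 difference 0.54, exact p = 0.333), also with no overlap. For miR-99b the 5p over 3p ratio was 16.7 and 19.3 in Ptf1a-/-, against 18.7 and 19.5 in Ptf1a+/-, which overlapped (exact p = 0.667). For miR-125b the 5p arm over both 3p arms was 15.0 and 9.56 in Ptf1a-/-, against 11.7 and 11.7 in Ptf1a+/-, so the 2 Ptf1a-/- libraries lay on opposite sides of the pair (exact p = 1). The 3p arms of the miR-125b loci, miR-125b-1-3p over miR-125b-2-3p, a ratio chosen after the values were seen, stood at 7.46 and 5.76 in Ptf1a-/-, against 7.22 and 7.20 in Ptf1a+/- (exact p = 1).

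As shares, miR-99b-5p made up 73.6 and 75.4% of the counts of the miR-99/100 family 5p arms in Ptf1a-/-, against 69.1 and 69.1% in Ptf1a+/-. miR-99a-5p made up 24.0 and 22.6% in Ptf1a-/-, against 28.0 and 28.0% in Ptf1a+/-, and miR-100-5p the small remainder. miR-125a-5p made up 71.6 and 75.0% of the miR-125 family 5p arms in Ptf1a-/-, against 77.9 and 77.4% in Ptf1a+/-. By counts of 5p arms, both families thus came mostly from the compact cluster in every library. These shares compare different sequences, some of which ligation and PCR may favour. Of the 3p arms of the miR-125 family, miR-125b-1-3p held the larger part, 58.0 and 59.8% in Ptf1a-/- and 61.3 and 60.3% in Ptf1a+/-.

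**Figure D4:**
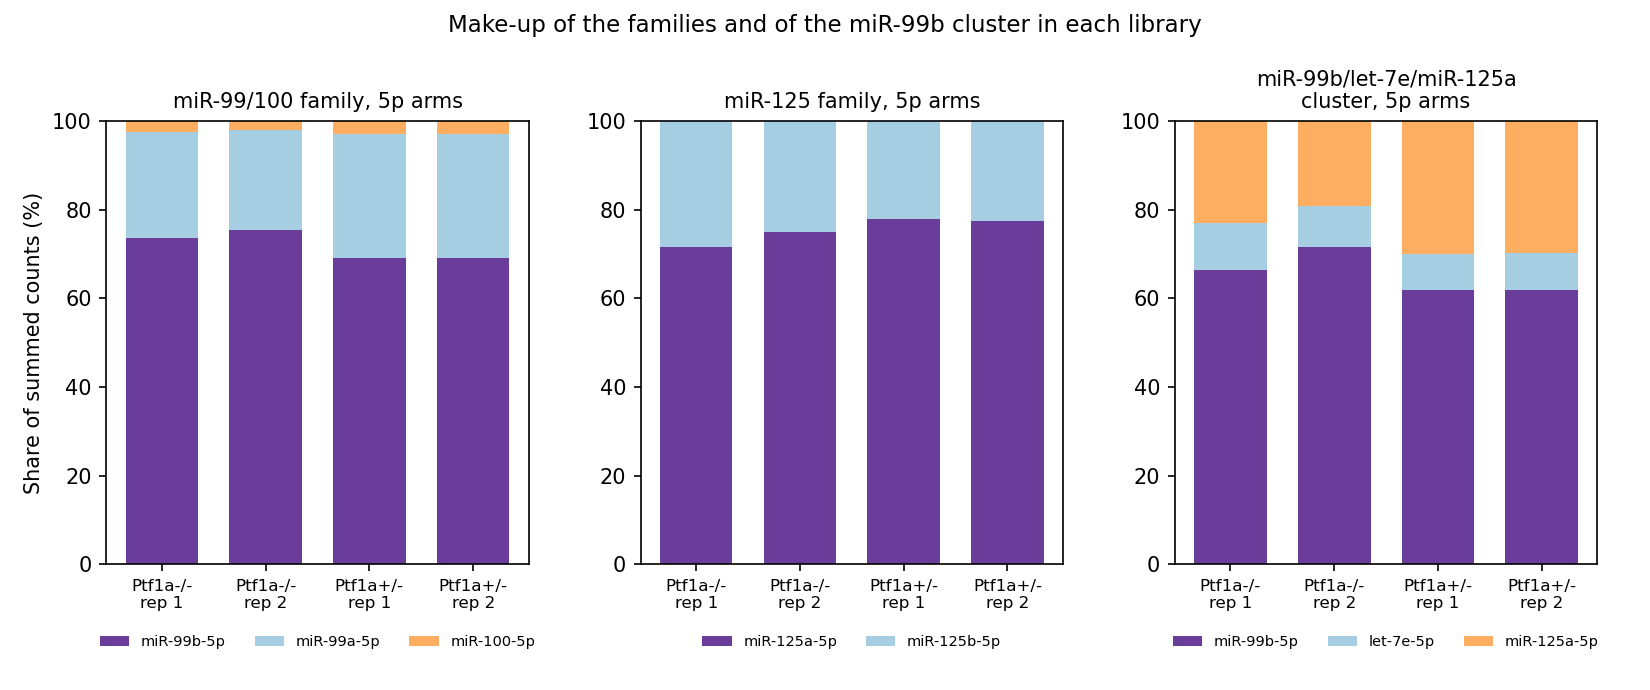
Shares of summed counts (%) in each library, Ptf1a-/- replicates left and Ptf1a+/- replicates right, within the miR-99/100 family, within the miR-125 family and within the 5p arms of the miR-99b cluster. In the cluster, miR-125a-5p takes 23.1 and 19.3% in Ptf1a-/-, against 29.9 and 29.9% in Ptf1a+/-.

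The let-7 arms of the same clusters showed no call. Of 6 arms 4 entered the test, and edgeR called none (none at an unadjusted p under 0.05; 0 with DESeq2). let-7e-5p stood at 2593 and 2586 CPM in Ptf1a-/-, against 2167 and 2219 CPM in Ptf1a+/- (0.24 ± 0.10, interval -0.01 to 0.49, adjusted p = 0.210). Both Ptf1a-/- libraries were higher on the TMM scaling. As shares of listed counts they stood on either side of the pair, at 0.275 and 0.214% against 0.230 and 0.238%. The direction of let-7e-5p flipped on the total behind the deposited CPM (-0.088). Its 3p arm let-7e-3p had 34.8 and 38.5 CPM in Ptf1a-/-, against 45.5 and 44.7 CPM in Ptf1a+/- (-0.30 ± 0.16, adjusted p = 0.321), so the 2 arms of let-7e stood on opposite sides of 0. let-7c-5p, which Mirlet7c-1 shares with the locus Mirlet7c-2, had 4313 and 8384 CPM in Ptf1a-/-, against 4752 and 4789 CPM in Ptf1a+/-. The Ptf1a-/- libraries straddled the pair, and the value of 0.41 ± 0.30 (adjusted p = 0.448) became -0.14 without Ptf1a-/- replicate 2. let-7a-5p, which Mirlet7a-2 shares with the locus Mirlet7a-1, had 11228 and 13008 CPM in Ptf1a-/-, against 10998 and 11064 CPM in Ptf1a+/- (0.14 ± 0.13, adjusted p = 0.573), and turned below 0 with library size alone (-0.054) and on the total behind the deposited CPM (-0.21). The locus-specific 3p arms had too few counts to test, let-7c-1-3p with 9 and 9 in Ptf1a-/- against 10 and 6 in Ptf1a+/-, and let-7a-2-3p with 0 and 1 against 1 and 0.

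Of 7 other let-7 guide arms that entered the test, edgeR called none, 2 had an unadjusted p under 0.05 (25.3% of all miRNAs did), and the log2 fold changes ran from -0.05 to 0.76. The smallest p was that of let-7f-5p, at 18624 and 22438 CPM in Ptf1a-/-, against 14141 and 13924 CPM in Ptf1a+/- (0.55 ± 0.14, edgeR adjusted p = 0.0756), and DESeq2 did call it (adjusted p = 0.0193). Among 13 alternatives, DESeq2 was the only one with 2 libraries of each genotype to give an adjusted p under 0.05. The log2 fold change of let-7f-5p ran from 0.20 to 0.67 over the 13. Its Ptf1a-/- libraries were both higher, the opposite side from miR-125a-5p.

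Relatives in sequence were read next. miR-351-5p, from the X chromosome, has the seed of miR-125 and is shown because it stood on the same side.
miR-351-5p: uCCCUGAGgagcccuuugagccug
It had 609 and 474 CPM in Ptf1a-/-, against 838 and 798 CPM in Ptf1a+/-. Both Ptf1a-/- libraries were lower, and the log2 fold change of -0.59 ± 0.15 (interval -0.95 to -0.23) did not pass after adjustment (edgeR adjusted p = 0.0638), while DESeq2 called it lower (adjusted p = 0.0279). Among 13 alternatives, no other one with 2 libraries of each genotype gave an adjusted p under 0.05. The log2 fold change of miR-351-5p ran from -0.90 to -0.42 over the 13. miR-670-5p carries the same run of bases one position further from its 5′ end and had few counts, 36 and 22 in Ptf1a-/- against 28 and 32 in Ptf1a+/- (adjusted p = 0.727). The miR-10 arms resemble miR-99/100 outside the seed. miR-10a-5p had 0 and 2 counts in Ptf1a-/-, against 37 and 54 in Ptf1a+/-, and was called lower (edgeR adjusted p = 0.010). Its ratio of summed counts, scaled by the TMM library sizes, was 0.0265 (95% counting interval 0.00316 to 0.0983). miR-10a-5p entered the test only through the Ptf1a+/- libraries, where it is the higher, so that call was favoured by the filter on low counts. miR-10b-5p had 1 and 2 counts in Ptf1a-/-, against 9 and 10 in Ptf1a+/-, and did not enter the test (ratio scaled likewise 0.190, counting interval 0.0360 to 0.646).

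Among the other 199 miRNAs with a mean of 100 CPM or more, the 3 nearest to miR-125a-5p in pattern were miR-149-5p, miR-222-3p and miR-181a-5p, by the Euclidean distance between log2 CPM centred over the 4 libraries (0.0849, 0.105 and 0.122). Because these 3 were picked for their closeness in the same 4 libraries, their lower Ptf1a-/- values follow from the choice and are a description only. miR-149-5p stood at 501 and 475 CPM in Ptf1a-/-, against 649 and 672 CPM in Ptf1a+/- (log2 fold change -0.44, adjusted p = 0.0577). miR-222-3p stood at 111 and 99.5 CPM in Ptf1a-/-, against 155 and 161 CPM in Ptf1a+/-, and was called lower (-0.59, edgeR adjusted p = 0.0436). miR-181a-5p stood at 15825 and 16882 CPM in Ptf1a-/-, against 22283 and 22340 CPM in Ptf1a+/- (-0.45, adjusted p = 0.0843).

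Marker miRNAs of other tissue, next to the retina or within it, were read over their whole lists. Whether cells of the neural retina also hold these miRNAs was not tested. Of 3 pigment epithelium miRNAs 1, miR-204-3p, was called lower, and their summed level was 3204 and 3566 CPM in Ptf1a-/-, against 3690 and 3729 CPM in Ptf1a+/-. Of 3 miRNAs of lens and surface epithelium, miR-200b-3p was called lower, at 1 and 3 counts in Ptf1a-/- against 25 and 31 in Ptf1a+/-, having entered the test only through the Ptf1a+/- libraries. miR-203-3p of the same list had 124 and 111 CPM in Ptf1a-/-, against 100.2 and 90.6 CPM in Ptf1a+/-, the other way (log2 fold change 0.30, edgeR adjusted p = 0.244). miR-184-3p had 102 and 189 CPM in Ptf1a-/-, against 198 and 195 CPM in Ptf1a+/- (-0.44, adjusted p = 0.388). The list summed to 227 and 301 CPM in Ptf1a-/-, against 305 and 292 CPM in Ptf1a+/-. None of 3 vessel and mural miRNAs was called (sums 352 and 587 CPM in Ptf1a-/-, 593 and 614 CPM in Ptf1a+/-), and none of 3 striated muscle miRNAs (65.1 and 70.2 CPM in Ptf1a-/-, 48.6 and 51.3 CPM in Ptf1a+/-). By edgeR 1 and 0 of them had an unadjusted p under 0.05, against 25.3% of all miRNAs tested. The 1 was miR-143-3p, at 13.2 and 20.6 CPM in Ptf1a-/-, against 33.8 and 34.3 CPM in Ptf1a+/- (log2 fold change -1.03, edgeR adjusted p = 0.0637). Of the 3 vessel and mural miRNAs, 2 had log2 fold changes below 0 and 1 above 0. Of 3 blood miRNAs only miR-486a-5p entered the test, and it was not called. miR-451a, a red cell miRNA, had at most 1 count in any library. miR-144-3p had 0 counts in both Ptf1a-/- libraries and 2 in each Ptf1a+/- library, too few to compare. The part of these tissues in the values of miR-125a-5p and the other members was not tested.

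The most frequent sequence of each member was nearly always the same in the 4 libraries. miR-99b-5p, miR-100-5p and miR-125b-1-3p matched RefSeq to the last base. miR-125a-5p, miR-125a-3p, miR-99a-5p and miR-125b-2-3p were each 1 nt shorter at the 3′ end, and miR-99b-3p was 1 nt longer. Among members that entered the test miR-125b-5p alone differed between libraries. Its most frequent sequence was the whole RefSeq sequence in Ptf1a-/- replicate 1 and in both Ptf1a+/- libraries, and lacked the last base in Ptf1a-/- replicate 2, the library with its lowest level; they are shown as deposited, with T for U and the seed in capitals.
miR-125b-5p in Ptf1a-/- replicate 2: tCCCTGAGaccctaacttgtg
miR-125b-5p in the other libraries: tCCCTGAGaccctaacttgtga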

How the data were processed

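Retina RNA was prepared with TRIzol, small RNA of 18 to 30 nt was taken from a gel and made into libraries with a New England Biolabs kit, and a further gel slice at 60 to 80 nt followed reverse transcription, per the labels' protocols. The submitters' processing notes name bcl2fastq 2.20.0.422. The sources used here name no aligner, counter or build. Per mature miRNA, the authors' raw table held estimated counts; between 5.73 and 7.84% of a library's values were not whole, and values were rounded for the count tests. Every value column belonged to a library. The deposited CPM divide the same values by a larger total (listed counts fall short of it by 22.7 and 27.9% for Ptf1a-/- replicates 1 and 2, against 17.0 and 16.3% for Ptf1a+/- replicates 1 and 2), which served as an alternative scaling. The deposited table of most frequent sequences follows miRBase22 per the file headers.

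Ptf1a-/- was tested against Ptf1a+/- with edgeR 4.0.16 in R 4.3.3 (quasi-likelihood F test, TMM, genotype as sole term). Errors of log2 fold changes are SE from the fit. Ratios use the deposited counts and exact two-sided permutation tests (scipy 1.17.1). DESeq2 1.42.0 and limma 3.58.1 served as alternatives. The design already set the rounding, since earlier work on these data had found estimated counts. Named miRNAs are all members, their let-7 cluster arms, sequence relatives, the other let-7 guide of smallest p and the 3 patterns nearest to a called member; the markers named were chosen after their values were seen. Members and lists were chosen with earlier results of these data known.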

Additional observations from a re-analysis of the deposited data

How the results depend on the processing

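Counts of called miRNAs depended on the setting. Over all miRNAs 36 were higher and 21 lower. There were 4 and 12 with library size alone, 2 higher on the total behind the deposited CPM, 12 and 9 without the filter on low counts, 5 and 7 with the replicate block, 0 and 1 with the Ptf1a+/- pair summed, and 0 to 137 in each direction when leaving out a library. The share of calls that were higher was 63.2% with TMM, 25% with library size alone and 6.90% on the deposited total, the median of all miRNAs shifting to -0.18 and -0.34. Members called lower numbered 1, and 0 with library size alone, without the filter, with the replicate block or with the pair summed, and 0 to 4 when leaving out a library (0 to 2 higher). Replicate numbers are shared by the genotypes, but samples of a number did not deviate together (correlation 0.0503 over 584 miRNAs); with the replicate block miR-125a-5p had an adjusted p of 0.166. Its log2 fold change ran from -0.55 to -0.49 when leaving out a library.

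With library size alone let-7a-5p (-0.054) and miR-99b-5p (-0.043) changed sign. On the deposited total let-7a-5p (-0.21), let-7e-5p (-0.088), miR-670-5p (-0.12), miR-99b-3p (-0.11) and miR-99b-5p (-0.20) did. Leaving out a library gave ranges across 0 for miR-125b-2-3p (-0.43 to 0.23), miR-670-5p (-0.056 to 0.41), let-7c-5p (-0.14 to 0.80) and miR-99b-5p (-0.013 to 0.30), and for the log2 differences of miR-99b 5p over 3p (-0.19 to 0.015), miR-125b 5p over 3p (-0.29 to 0.36), miR-125b-1-3p over miR-125b-2-3p (-0.32 to 0.048) and let-7e-5p over miR-99b-5p (-0.066 to 0.26). The cause was not tested. The other 9 ratios kept their sign under every alternative run. At this depth miR-99a-3p had too few counts to enter the test.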
